A study of Arabidopsis thaliana with 8 samples.

Results

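The genes described are 10 loci listed as pentatricopeptide repeat (PPR) proteins of plant organelles: AT5G39980, AT4G25270 (OTP70), AT4G14050, AT3G22690, AT2G30100, AT1G31790, AT2G46050, AT3G13150, AT5G53080 and AT3G51320. They were chosen by locus, with earlier results of these data known. Each is the only gene its array spot is assigned to in the platform annotation. Together they make up 10 of the 3261 genes or unnamed spots tested. All 10 were on the array with 1 spot each, and all 10 passed the filter, which dropped spots at 0 on over 4 of the 8 arrays. The study hybridised total RNA of Arabidopsis thaliana, ecotype Columbia 0, to 8 single-colour arrays. The tatA group is 4 samples of an antisense line directed at tatA, which the labels also call a mutant, and the WT group is 4 wild-type samples. Both groups share the Columbia 0 background. An antisense line lowers a transcript to an extent that has to be measured, and the level of the tatA transcript is not analysed here. The labels speak of a single line, and the promoter of its construct, the tissue, the age of the plants and the growth conditions are not given in the sources used here. Nothing in the labels says that the 4 samples of a group came from separate plants or cultures, so the p-values measure the spread between these samples, which may be technical.

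PPR proteins are encoded in the nucleus and carry tandem helical repeats, each of which contacts a base of single-stranded RNA. Most are imported into chloroplasts or mitochondria, where they splice, edit, stabilise or help translate particular organelle transcripts, and the family is very large in land plants. The protein TatA belongs to the twin-arginine translocase of the thylakoid membrane, which moves folded proteins into the thylakoid lumen and is not itself an RNA-binding factor. The RefSeq gene table holds a descriptive name for OTP70 (from organelle transcript processing) and only the locus for the other 9, and no protein sequence was used, so membership of the family rests on the list. It is least certain for AT5G53080, which has also been described as a tetratricopeptide repeat protein, a related helical repeat that binds proteins.

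Replicates 1 and 2 of each group resembled each other, as did replicates 3 and 4. The median absolute log2 difference between 2 arrays over all rows was 0.257 for tatA replicates 1 and 2, 0.224 for tatA replicates 3 and 4, 0.166 for WT replicates 1 and 2 and 0.199 for WT replicates 3 and 4. Between these pairs it ran from 0.373 to 0.406 within tatA and from 0.398 to 0.408 within WT. Changes of the 10 PPR genes are therefore also given within replicates 1-2 and within replicates 3-4. Spot intensities have no stated unit and end at an upper limit of 100. Median spot intensity was 0.365 to 0.390 on the tatA arrays, against 0.429 to 0.531 on the WT arrays, and on the deposited scale the median row lay at -0.47 (log2, tatA minus WT). Changes are given after quantile normalization, which makes all arrays share a distribution and so takes out any overall difference in level between them.

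Of the 10 PPR genes, 6 differed between tatA and WT by limma (p under 0.05 after Benjamini-Hochberg adjustment over 3261 rows), where 32.1% of all rows did. In the tatA line 4 were higher (AT2G30100, AT1G31790, AT2G46050 and AT5G39980), against a background of 15.3% of rows called higher. Transcripts of 2 were lower (AT4G14050 and OTP70), against 16.8% of rows called lower. The other 4, AT3G13150, AT3G22690, AT5G53080 and AT3G51320, did not pass. The 10 changes ran from -1.52 to 2.90 on the log2 scale with a median of 0.070, and the median of all rows tested was -0.094. Their median absolute change was 0.84, and that of all rows was 0.56. On the deposited scale the tatA and WT values did not overlap in 7 of the 10 genes, as in 43% of rows, and after normalization in 6 of the 10, as in 35.5% of rows. Calls among the PPR genes were thus made in both directions. Because the 10 were chosen with earlier results of these data known, their shares do not stand for PPR genes at large. In total RNA of whole samples, fewer cells of a type and less RNA per cell cannot be told apart.

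**Figure D1:**
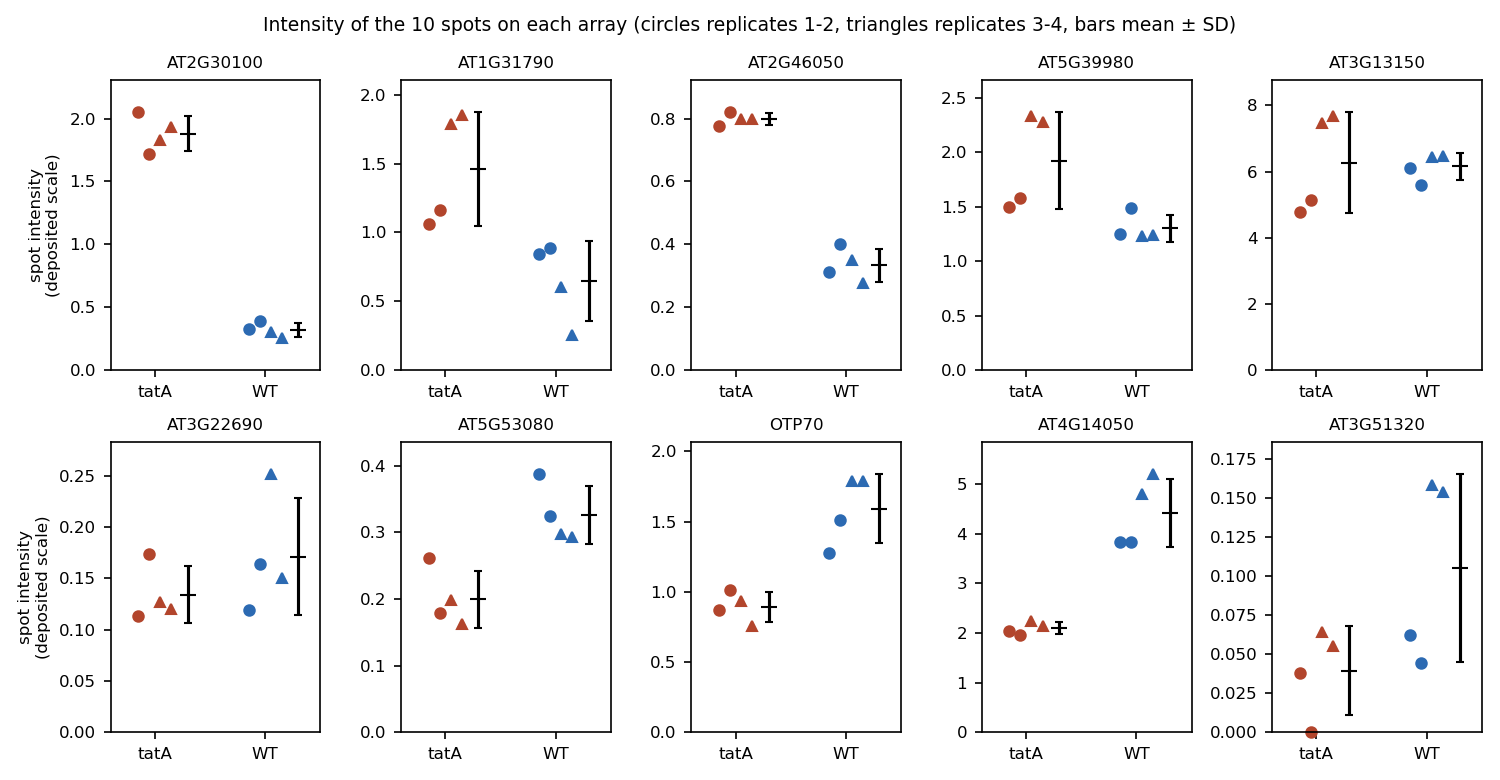
Spot intensity on the deposited linear scale (vertical axes, a separate range for each gene) of the 10 PPR genes on the 4 tatA and 4 WT arrays. Circles are replicates 1-2, triangles are replicates 3-4, and the bars give the mean ± SD over 4 arrays; in 7 of the 10 genes the tatA points lie wholly above or wholly below the WT points.

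AT5G39980 has been described as a chloroplast PPR protein needed for the splicing of plastid introns. Its spot had intensities of 1.50, 1.58, 2.33 and 2.28 on tatA arrays 1 to 4, against 1.25, 1.49, 1.23 and 1.24 on WT arrays 1 to 4. The groups did not overlap, but tatA replicates 1 and 2 lay close above WT replicate 2, the highest WT value, while tatA replicates 3 and 4 stood well clear of it. The mean was 1.92 ± 0.445 in tatA and 1.30 ± 0.124 in WT (SD, n = 4 arrays), and the log2 change after normalization was 0.91 (limma, SE 0.16, adjusted p = 0.00274). The log2 change was 0.51 within replicates 1-2 and 1.31 within replicates 3-4. It was 0.54 on the deposited scale (adjusted p by limma = 0.0287). With each value centred on the 10 nearest spots by number, the log2 change was 0.16 and the gene did not pass (adjusted p by limma = 0.680).

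OTP70 is a PPR protein of the chloroplast that takes part in splicing the intron of the plastid rpoC1 transcript, which encodes a subunit of the plastid RNA polymerase. Intensities were 0.870, 1.01, 0.932 and 0.755 on tatA arrays 1 to 4, against 1.28, 1.51, 1.79 and 1.79 on WT arrays 1 to 4. Every tatA value was below every WT value, with means of 0.891 ± 0.107 in tatA and 1.59 ± 0.245 in WT (SD, n = 4 arrays). After normalization the change of OTP70 was -0.46 on the log2 scale (limma, SE 0.12, adjusted p = 0.0203), and within the replicate pairs it was -0.26 (1-2) and -0.67 (3-4). This was the weakest of the 6 calls. It was lost with the 2 replicate pairs of each group fitted as random blocks (adjusted p by limma = 0.0987), without WT replicate 3 (0.0546) or WT replicate 4 (0.0536), and with neighbouring spots as the centre, where the value was 0.0098 (adjusted p by limma = 0.970). The 2 described plastid splicing factors therefore had changes of opposite sign after normalization.

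AT4G14050 has been described as an RNA editing factor of mitochondria, a PPR protein that marks particular cytidines for conversion to uridine. Intensities were 2.05, 1.97, 2.25 and 2.14 on tatA arrays 1 to 4, against 3.83, 3.84, 4.80 and 5.19 on WT arrays 1 to 4. The tatA values lay within a narrow band, all below the lowest WT value, and the WT values were higher in replicates 3 and 4 than in replicates 1 and 2. The mean was 2.10 ± 0.121 in tatA and 4.41 ± 0.688 in WT (SD, n = 4 arrays), a ratio of 0.477. The log2 change after normalization was -0.78 (limma, SE 0.14, adjusted p = 0.00335). It was -0.52 within replicates 1-2 and -1.04 within replicates 3-4. AT4G14050 also passed with pairs as random blocks (adjusted p by limma = 0.00979) and with neighbouring spots as the centre, with a log2 change of -1.21 (adjusted p by limma = 0.000918). Quantile normalization gave WT replicates 1 and 2 the same log2 value (1.75), so the SE leaves out the small spread in intensity between them. The spot numbered just before that of AT4G14050 averaged 1.50 in tatA and 3.23 in WT, and its part in the result was not tested.

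AT3G22690, described as a PPR protein needed for editing of the plastid rpoB transcript and for greening of seedlings, was dim in both groups. Intensities were 0.113, 0.174, 0.127 and 0.120 on tatA arrays 1 to 4, against 0.119, 0.164, 0.251 and 0.150 on WT arrays 1 to 4. The groups overlapped through most of their range. The log2 value was 0.037 (limma, SE 0.31, adjusted p = 0.938), with 0.28 in replicates 1-2 and -0.21 in replicates 3-4. It was the only one of the 10 genes whose replicate pairs had opposite signs. The other 9 had the same sign in both pairs, as 72.8% of all rows did.

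For the remaining 6 genes no role in a particular organelle transcript is stated here. AT2G30100 had the largest change of the 10 by size and by adjusted p. Its spot had intensities of 2.05, 1.72, 1.83 and 1.93 on tatA arrays 1 to 4, against 0.324, 0.391, 0.303 and 0.253 on WT arrays 1 to 4. The lowest tatA value was above the highest WT value by several times the spread of either group. The ratio of the mean intensities, 1.88 in tatA and 0.318 in WT, was 5.93. The log2 change was 2.90 (limma, SE 0.19, adjusted p = 2.59e-05), with 2.64 in replicates 1-2 and 3.17 in replicates 3-4. In WT, 33.0% of the array's spots were dimmer than this spot, and in tatA 93.1% were. The 2 nearest spots by number averaged 0.457 and 0.736 in tatA, against 0.275 and 0.391 in WT, and with neighbouring spots as the centre the log2 change of AT2G30100 was 2.94. AT2G30100 was the only PPR gene of the 10 to pass with each replicate pair averaged to 1 value (adjusted p by limma = 0.0339), a fit in which 1.75% of all rows passed. With the pair number as a further term, 2 of the 10 passed, AT2G30100 and AT2G46050, and 6.38% of all rows did.

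AT2G46050 had values in the tatA line that differed little between arrays. Intensities were 0.775, 0.820, 0.798 and 0.799 on tatA arrays 1 to 4, against 0.312, 0.400, 0.349 and 0.276 on WT arrays 1 to 4. The groups did not overlap, and the 4 tatA values differed by less than the WT values did. The mean was 0.798 ± 0.0183 in tatA and 0.334 ± 0.0528 in WT (SD, n = 4 arrays), a ratio of 2.39. The log2 change was 1.64 (limma, SE 0.18, adjusted p = 0.000273), with 1.43 in replicates 1-2 and 1.85 in replicates 3-4. With each pair averaged, AT2G46050 had a limma adjusted p of 0.0627 and did not pass. Normalization gave tatA replicates 3 and 4 the same log2 value (-0.14).

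AT1G31790 had a log2 change of the same size, 1.64, with a much larger error (limma, SE 0.42, adjusted p = 0.0180). Intensities were 1.06, 1.16, 1.79 and 1.85 on tatA arrays 1 to 4, against 0.842, 0.890, 0.603 and 0.254 on WT arrays 1 to 4. The groups did not overlap, but tatA replicates 1 and 2 exceeded the same WT replicates by little, and WT replicate 4 was the lowest of all. Within replicates 1-2 the log2 change was 0.65 and within replicates 3-4 it was 2.63. The size of this rise is therefore poorly fixed, and whether the pairs differ was not tested. The call was lost with pairs as random blocks (adjusted p by limma = 0.0636) and, by a small margin, without tatA replicate 4 (0.0502).

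AT3G13150 had the brightest spot of the family. Intensities were 4.77, 5.14, 7.46 and 7.69 on tatA arrays 1 to 4, against 6.11, 5.60, 6.45 and 6.47 on WT arrays 1 to 4. tatA replicates 1 and 2 lay below all WT arrays and tatA replicates 3 and 4 above all of them, so the tatA group enclosed the WT group. The means were 6.27 ± 1.52 in tatA and 6.16 ± 0.408 in WT (SD, n = 4 arrays). After normalization replicates 3-4 were higher than replicates 1-2 by 0.29 (log2) in tatA and by 0.29 in WT, so that both groups had the same offset between pairs. The log2 value of tatA minus WT was 0.11 in replicates 1-2 and 0.10 in replicates 3-4, and 0.10 overall (limma, SE 0.12, adjusted p = 0.525). On the deposited scale it was -0.0054.

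AT5G53080 had intensities of 0.261, 0.179, 0.198 and 0.163 on tatA arrays 1 to 4, against 0.387, 0.325, 0.298 and 0.293 on WT arrays 1 to 4. All tatA values were below all WT values on the deposited scale, as in 33.7% of all rows. There the log2 change was -0.72 (adjusted p by limma = 0.0371). After quantile normalization the groups overlapped and the gene did not pass, with a log2 value of -0.37 (limma, SE 0.25, adjusted p = 0.281). Within replicates 1-2 the log2 value was -0.49 and within replicates 3-4 it was -0.26. Whether AT5G53080 was lower in tatA thus depended on the scaling of the arrays.

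AT3G51320 had the dimmest spot of the family and was listed at 0 on 1 array. Intensities were 0.0382, 0, 0.0643 and 0.0551 on tatA arrays 1 to 4, against 0.0621, 0.0444, 0.158 and 0.154 on WT arrays 1 to 4. The groups overlapped, with WT replicate 2 below the 2 highest tatA values. The log2 value of -1.52 (limma, SE 1.30, adjusted p = 0.392) is set in large part by the value put in place of the 0. Without tatA replicate 2, the array at 0, the log2 value was -0.17 (adjusted p by limma = 0.849), and with each array left out in turn it ran from -2.07 to -0.17. With an offset of 0.118 before log2 it was -0.26. Within replicates 1-2, which hold the 0, it was -2.15, and within replicates 3-4 it was -0.90. Only 7.56% of spots in tatA and 10.7% in WT were dimmer.

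**Figure D2:**
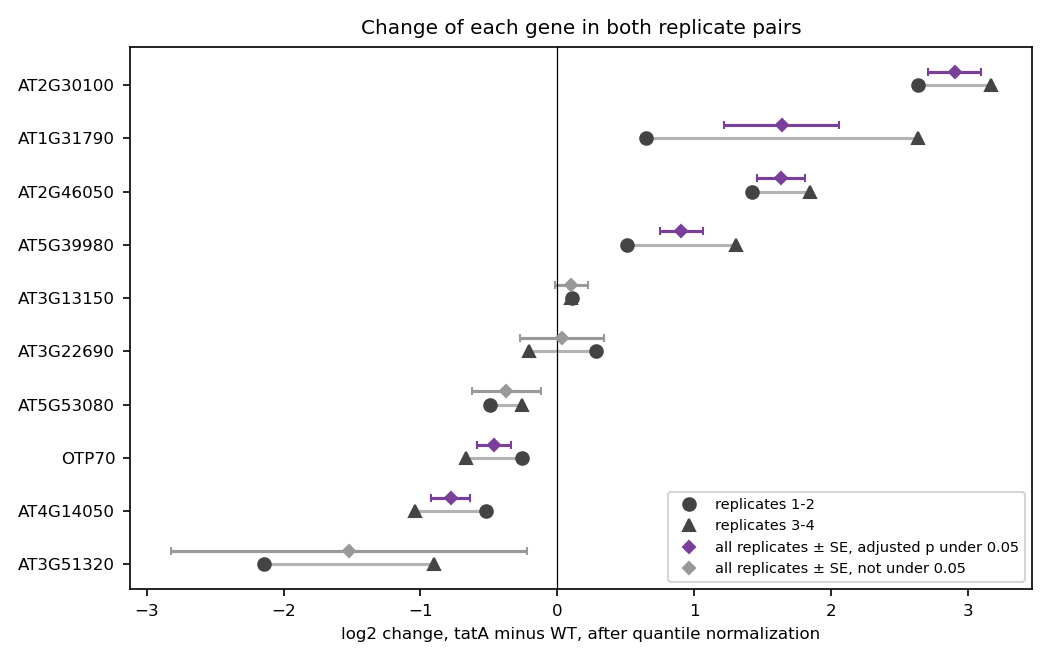
Log2 change of the 10 PPR genes, tatA minus WT, after quantile normalization (horizontal axis). Circles are changes within replicates 1-2, triangles within replicates 3-4, and diamonds the change over all arrays ± SE, purple where the limma adjusted p was under 0.05; AT2G30100 lies at 2.64 and 3.17 in its pairs and AT1G31790 at 0.65 and 2.63.

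In each of the 6 genes that passed, the change was larger in size within replicates 3-4 than within replicates 1-2. The share of all called rows with this pattern is not given here. The offset between the pairs, replicates 3-4 minus replicates 1-2 on the normalized log2 scale, shows on which side the larger change arose. In AT4G14050 it was -0.0046 among the tatA arrays and 0.52 among the WT arrays. In AT2G46050 it was -0.023 in tatA and -0.44 in WT, and in AT2G30100 it was -0.096 in tatA and -0.63 in WT. In these 3 genes the tatA level was thus nearly the same in both pairs and the WT level was not. For AT2G46050 the WT offset was little larger than the differences inside its WT pairs, 0.35 (1-2) and 0.33 (3-4). OTP70 had offsets of -0.20 in tatA and 0.22 in WT, AT5G39980 had 0.43 in tatA and -0.37 in WT, and AT1G31790 had 0.60 in tatA and -1.39 in WT. In these 3 genes the offsets of the 2 groups had opposite signs. The OTP70 offset in tatA was no larger than the differences inside its tatA pairs allow, 0.19 (1-2) and 0.27 (3-4). In WT it was little larger than the difference inside replicates 1-2, 0.18, with 0.0077 inside replicates 3-4. For AT1G31790, WT replicates 3 and 4 themselves differed by 1.20, so its WT offset rests largely on WT replicate 4. With pairs as random blocks, 4 of the 10 PPR genes passed (AT2G30100, AT2G46050, AT5G39980 and AT4G14050), where 16.5% of all rows passed. Within replicates 1-2 alone 5 passed (28.6% of rows) and within replicates 3-4 alone 6 passed (44.3% of rows). OTP70 was the gene that passed in the second of these fits and not in the first (adjusted p by limma = 0.0130 and 0.171).

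**Figure D3:**
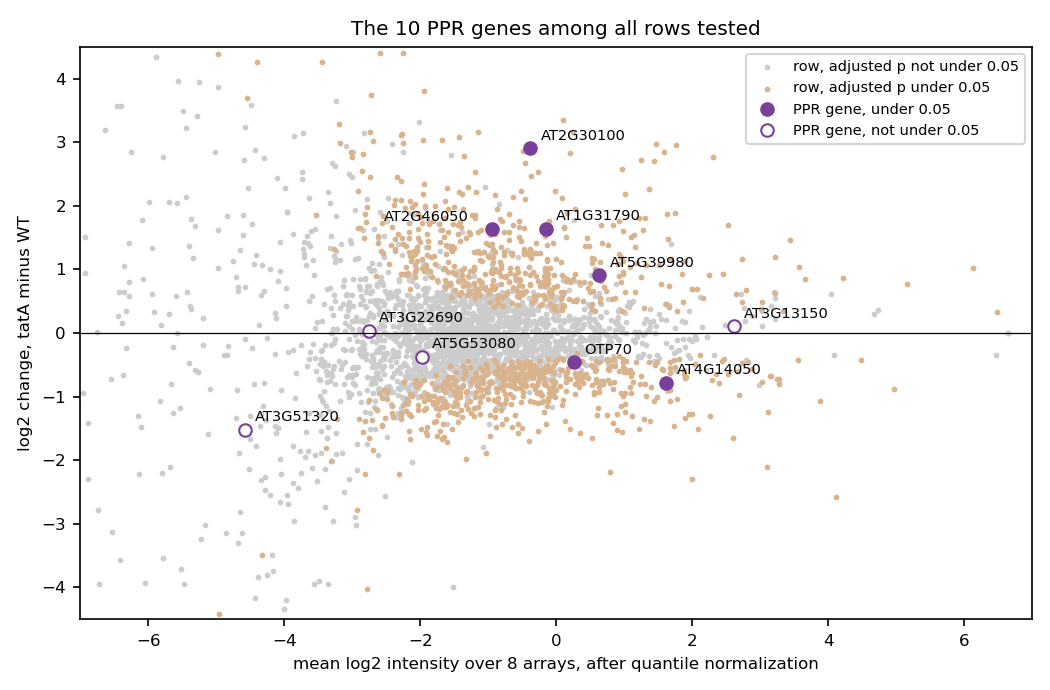
Log2 change, tatA minus WT (vertical axis), against the mean log2 intensity over 8 arrays after quantile normalization (horizontal axis) for all 3261 rows tested. Tan points are rows with a limma adjusted p under 0.05, and the 10 PPR genes are circles, filled where they passed; 73 rows lie outside the axes, and the PPR genes lie inside the range of the other rows.

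Spot brightness does not compare transcripts of different genes, because spots differ in how they bind their target, but it bears on the precision of each value. In WT, 5 of the 10 PPR spots were brighter than the median spot. AT3G13150 and AT4G14050 were brighter than 98.1% and 97.1% of spots in WT, OTP70 than 88.5%, AT5G39980 than 84.2% and AT1G31790 than 62.6%. The spots of AT2G46050, AT5G53080 and AT2G30100 were brighter than 34.9%, 33.9% and 33.0% of the array. Those of AT3G22690 and AT3G51320 were brighter than 17.2% and 10.7%. Of the 4 genes that did not pass, 3 were thus among the dimmer spots in both groups, and AT3G13150 was the brightest of the 10. AT2G46050 and AT2G30100 passed though they ranked close to AT5G53080 in WT. In tatA they were brighter than 79.4% and 93.1% of spots. In RefSeq (TAIR10.1), AT1G31790, AT5G39980 and OTP70 each overlap another protein-coding gene, and which of the genes the spot reads in the overlap was not tested.

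The direction of the 6 calls was the same under quantile normalization, median centring, scaling to the 75th percentile and the deposited scale. Counts of PPR genes that passed were 6, 6, 6 and 7 of 10 under these scalings, where 32.1%, 31.5%, 30.9% and 42.6% of all rows passed. The seventh gene on the deposited scale was AT5G53080. Of all rows, 310 were called higher and 1080 lower on the deposited scale, against 499 higher and 547 lower after quantile normalization, while the PPR genes divided into 4 higher and 3 lower there. Centring on neighbouring spots left 4 PPR genes (30% of rows passed): AT2G30100, AT1G31790, AT2G46050 and AT4G14050. The plot by scaling shows that the rises of AT2G30100, AT1G31790 and AT2G46050 and the fall of AT4G14050 had the same sign in all 5 scalings.

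**Figure D4:**
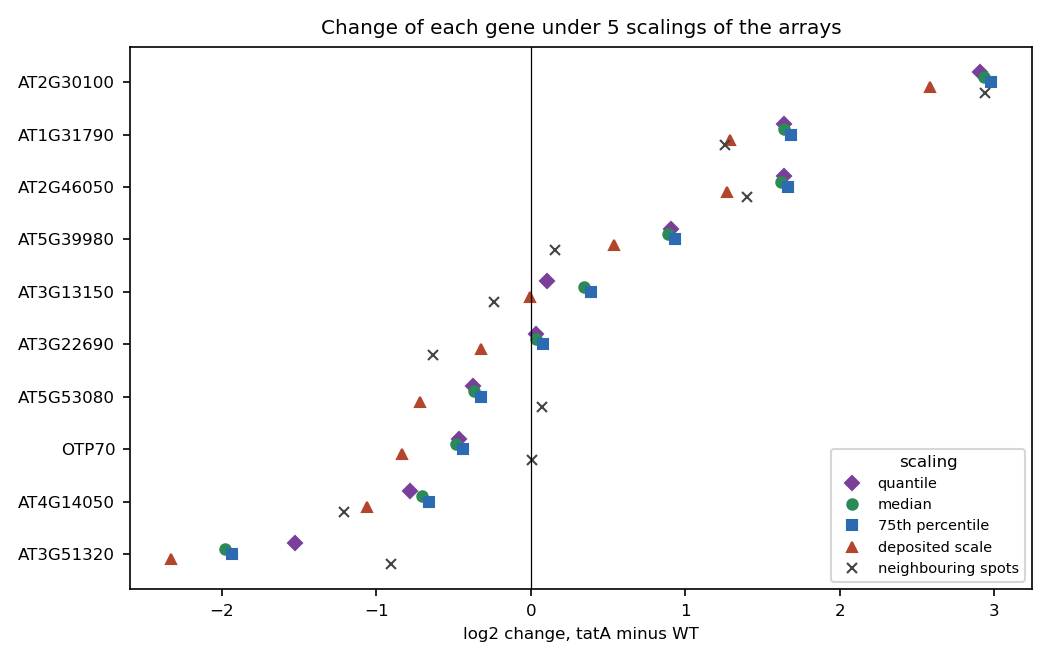
Log2 change of the 10 PPR genes, tatA minus WT (horizontal axis), under 5 scalings of the arrays, with one marker shape per scaling. OTP70 lies at -0.46 after quantile normalization and at 0.0098 when centred on neighbouring spots, and AT2G30100 lies between 2.58 and 2.98.

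Few of the other genes of organelle RNA metabolism that were listed for context had a single-gene spot. The lists were not complete families. Further PPR genes were sought by name in RefSeq, which gives only the locus for 9 of the 10 genes described, so others on the array can be missed. Of 91 genes in 9 lists (other PPR proteins, editing cofactors, splicing factors with a CRM domain, chloroplast ribonucleoproteins, ribonucleases, RNA polymerases and sigma factors, Whirly proteins and mTERF proteins), 6 could be tested and 6 lists had no tested member. Of the 6 genes tested, 1 passed as higher and 1 as lower, where 15.3% of all rows were called higher and 16.8% lower. Among the other PPR genes listed, CRR21 is needed for editing of the plastid ndhD transcript. On tatA arrays 1 to 4 it had intensities of 0.265, 0.279, 0.420 and 0.318, against 0.697, 0.797, 0.491 and 0.478 on WT arrays. All tatA values were below all WT values, but after normalization CRR21 had a log2 value of -0.57 and did not pass (adjusted p by limma = 0.145), and on the deposited scale it had -0.93 and passed (adjusted p by limma = 0.0132). Its normalized log2 value was -1.21 within replicates 1-2 and 0.081 within replicates 3-4, so the pairs had opposite signs. OTP85, another editing factor of plastid ndhD, had means of 0.185 ± 0.0236 in tatA and 0.196 ± 0.0434 in WT (SD, n = 4 arrays) and did not pass (log2 value 0.27, limma adjusted p = 0.462), with 0.20 in replicates 1-2 and 0.34 in replicates 3-4.

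Of the 2 listed CRM-domain genes tested, AT4G29750 was lower in tatA (log2 change -2.29, limma adjusted p = 6.62e-06), with -2.13 in replicates 1-2 and -2.45 in replicates 3-4. AT3G27550 did not pass (log2 value -0.12, limma adjusted p = 0.707), and its pairs had opposite signs, with 0.35 in replicates 1-2 and -0.59 in replicates 3-4. Members of the mTERF family bind organelle nucleic acids, and 2 of those listed were tested. AT3G18870 passed with a log2 change of 0.82 (limma, SE 0.25, adjusted p = 0.0343). Its groups overlapped, with intensities of 1.56, 1.46, 2.19 and 2.51 on tatA arrays 1 to 4, against 1.12, 1.15, 2.25 and 1.08 on WT arrays 1 to 4. Its log2 change was 0.72 in replicates 1-2 and 0.93 in replicates 3-4. AT3G18870 did not pass with pairs as random blocks (adjusted p by limma = 0.192) or on the deposited scale (0.158). AT5G55580, the other listed mTERF gene tested, did not pass (log2 value 0.61, limma adjusted p = 0.245), with -0.35 in replicates 1-2 and 1.57 in replicates 3-4.

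The named genes closest to the PPR genes in profile were found by the root mean square difference of log2 values over the 8 arrays, each profile centred on its own mean, among 645 other genes. For AT2G30100, the largest rise, these were AT3G23940 (0.389), AT3G06870 (0.432) and AT5G46390 (0.460). These 3 had log2 changes of 3.13, 2.24 and 3.04. For AT4G14050, the largest fall among the genes that passed, they were SECE1 (0.102), AT2G32040 (0.127) and XERICO (0.128), with log2 changes of -0.64, -0.73 and -0.79. SECE1 is a subunit of the thylakoid Sec translocase, and XERICO is a RING-type protein linked to abscisic acid. Between PPR genes the smallest such difference was that of OTP70 and AT4G14050 (0.229), the 2 that were lower in tatA. Among the 4 that were higher, AT2G46050 and AT5G39980 differed by 0.412, and AT1G31790 and AT2G46050 by 0.460, but AT2G30100 and AT5G39980 by 1.03. Some genes with unlike calls were closer: OTP70 differed by 0.339 from AT3G22690 and by 0.358 from AT3G13150, which did not pass. These distances describe 8 arrays that share the contrast of tatA with WT, and they were not tested.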

How the data were processed

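The authors deposited a table of 3439 spots by 8 arrays, holding linear intensity that is never below 0. How the spots were read, background-corrected or scaled is not given in the sources used. A spot at 0 on over 4 of 8 arrays was dropped (177 spots), any other 0 was replaced by its array's smallest positive value, log2 was taken and arrays were quantile normalized. Averaging the 2 spots of 1 gene left 3261 rows, 646 with a gene. Of 692 spots with 1 gene in the platform annotation, 690 matched RefSeq (TAIR10.1), used for names and neighbouring genes. The comparison used limma 3.58.1 under R 4.3.3 (intensity trend, two-sided, group as the only term), with Benjamini-Hochberg adjustment over all rows, and was tested on simulated data. There, 52% of 100 rows changed by log2 1 were recovered, and 87% of 100 rows changed by log2 2. Of the simulated rows called, 6.08% were false. In the data 32.1% of rows were called and arrays were alike in pairs, and whether these shares hold there was not tested. All 10 genes, list genes that passed and the 3 nearest profiles were named by rule, and the other tested list genes after their values were seen. The members and lists were chosen with earlier results of these data known.

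Replicate numbers in the titles were checked as pairs: deviations of same-numbered tatA and WT arrays from their group means correlated at 0.284, 0.311, 0.266 and 0.337 for replicates 1 to 4, over the limit for a block. No label says what a number marks. Alternatives were other scalings, filters, offsets and variance models, the replicate number or pairs as a block, pairs averaged, centring on 10 neighbouring spots and leaving out each array. Neighbouring spots were taken by spot number, and position on the array was not used. Averaged pairs with a term for the pair were added after seeing the data. The number of arrays limits the precision. Figures used matplotlib 3.10.9 in Python 3.11.15.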

Additional observations from a re-analysis of the deposited data

Results flagged for a closer look

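Among the 20 groups of 4 arrays (10 PPR genes, tatA and WT), 1 held an array that stood far from the other 3. In AT5G39980, WT replicate 2 had an intensity of 1.49, while the other WT arrays had 1.23 to 1.25, so that its gap to the nearest was 0.907 of the group's whole range. Chance flags about 1 in 20 such groups. The tatA values of AT5G39980, 1.50 to 2.33, lay above this array too, and leaving out 1 array at a time kept the call in 8 of 8 fits (limma adjusted p from 0.00312 to 0.00963).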

How the results depend on the processing

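The count of PPR genes that passed, 6 of 10, stayed within 1.5 times under the alternatives run, except with the replicate pairs averaged (1) and averaged with a term for the pair (2, AT2G30100 and AT2G46050, where 6.38% of rows passed). With each array left out it was 5 to 6. Over all rows, 537 passed with pairs as random blocks, 57 with pairs averaged and 208 with a term for the pair too, against 1046, and 780 to 952 with 1 array left out. With the replicate block (the number as a fixed or as a random term), 6 PPR genes and 1027 or 1176 rows passed, and no call on a PPR gene changed. Of the 6 list genes, 1 passed with pairs as random blocks, against 2. AT2G30100 passed in 18 of 18 alternatives and 8 of 8 fits without 1 array. Sign changes were found in 4 genes, of which only OTP70 had passed. Centred on neighbouring spots, the log2 value was 0.0098 for OTP70, 0.072 for AT5G53080, -0.24 for AT3G13150 and -0.63 for AT3G22690. On the deposited scale it was -0.0054 for AT3G13150 and -0.32 for AT3G22690. AT3G22690 also had -0.21 in replicates 3-4 alone, -0.018 with all spots holding a 0 left out, and -0.10 to 0.18 with 1 array left out. The cause was not tested. AT3G51320 gave no value with the dimmest 25% or 50% of rows or all spots holding a 0 left out, AT3G22690 none with the dimmest 25% or 50% left out, and AT5G53080 none with the dimmest 50% left out. Without tatA replicate 2, AT3G51320 had -0.17, against -1.52. The dimmest of the 10 spots in both groups were those of AT3G51320 and AT3G22690, and whether signal limited their calls was not tested.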
